A study of Drosophila melanogaster with 3 samples.

Results

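The genes myospheroid (mys), multiple edematous wings (mew), inflated (if), rhea, Integrin linked kinase (Ilk) and steamer duck (stck) encode 3 integrin receptor subunits and 3 of the proteins that link integrins to actin in Drosophila melanogaster. They were chosen by name, as 6 of 13945 protein-coding genes, and every summit of the reproducible Traffic jam peak list from 10 kb before to 10 kb after each gene was taken. That gave 58 of 10688 summits, or 0.543% of the list, in 42 blocks of overlapping peaks. The peaks came from chromatin immunoprecipitation with an anti-GFP antibody on whole adult female flies of 1 transgenic line, of unknown age, that makes Traffic jam (tj), a large Maf transcription factor, with GFP fused to its C terminus. Chromatin was sonicated to fragments of 200 to 800 bp. The 3 biological replicates formed the only group, so the values below are descriptions and no groups were tested against each other. Whole flies mix all tissues, and binding in few cells cannot be told apart from weak binding in many. The number of reads per replicate is unknown. Untagged flies were not analysed here.

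Integrins are receptors of one alpha and one beta chain that hold cells to the extracellular matrix. In the fly, mys encodes the betaPS chain, mew the alphaPS1 chain, which binds laminins, and if the alphaPS2 chain, which binds ligands such as tiggrin. Inside the cell, talin (rhea) binds the beta chain and actin, while Ilk, a pseudokinase, sits in a complex with PINCH (stck) and parvin. In the ovary, follicle cells use these receptors on their basal side, toward the basement membrane, and Traffic jam is known to control adhesion molecules in the somatic gonad.

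All 6 genes held summits, at very unequal strength. Signal is the enrichment value that the authors' peak caller gave each peak, without a stated unit. It is given here as relative signal, the value in a replicate divided by that replicate's median at the 10265 IDR peaks found in all 3 replicates (113.6, 242.1 and 160.6 in replicates 1, 2 and 3), so that 1 is a typical peak of the list. IDR, the irreproducible discovery rate, is the procedure by which reproducible peaks were selected. The strongest summit of a window is the one with the highest signal in the IDR list. By its mean relative signal over the replicates the order was mew, rhea, mys, if and stck together, and Ilk last. The strongest of many summits tends to exceed the strongest of few, so this order depends in part on the number of summits. The windows held 21 in mew, 10 each in mys and rhea, 9 in stck, 6 in if and 2 in Ilk. In mew and rhea the strongest summit lay in an intron, 21869 and 2558 bp past the nearest start of the gene. It lay next to the start in mys, in the first intron in if and between genes in stck. In Ilk it lay beyond the 3′ end, where its IDR signal of 229.6 was slightly above the 219.9 of the Ilk promoter summit. On relative signal the Ilk promoter summit was the higher of the pair (0.46 ± 0.19 against 0.44 ± 0.12, SD, n = 3), and their replicate ranges overlapped.

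The bases at these summits are printed below in dm6, on the strand of the gene, from the NCBI Release 6 genome. They show the window of the strongest summit of mew, if, rhea, stck and Ilk, the bases before the start of mys and of Ilk, and in mew also the summit with the full TGCTGAC and a strong summit with a repeated TGCTGA. Capitals mark TGCTGA (the first 6 letters of TGCTGAC, the Maf core word), GAGAG (the GAGA factor word) and TTCNNNGAA (the STAT type), each on either strand. Bases in a UTR are left out, so the mys bases end before its strongest summit, which lies past the start, and the Ilk promoter is shown only up to its start.
mys, 100 bases before the start at 8061645 (chrX:8061545-8061644, plus strand): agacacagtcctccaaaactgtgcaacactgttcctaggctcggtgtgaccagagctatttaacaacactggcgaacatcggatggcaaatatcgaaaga
mew, strongest summit, intron 2 (chrX:13235214-13235414, minus strand): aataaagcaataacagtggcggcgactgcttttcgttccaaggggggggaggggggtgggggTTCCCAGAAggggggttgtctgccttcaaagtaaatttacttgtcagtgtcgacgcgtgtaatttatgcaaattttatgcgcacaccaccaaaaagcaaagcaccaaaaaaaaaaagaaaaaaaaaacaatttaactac
mew, intron 2, the word TGCTGA found 2 times (chrX:13229860-13230060, minus strand): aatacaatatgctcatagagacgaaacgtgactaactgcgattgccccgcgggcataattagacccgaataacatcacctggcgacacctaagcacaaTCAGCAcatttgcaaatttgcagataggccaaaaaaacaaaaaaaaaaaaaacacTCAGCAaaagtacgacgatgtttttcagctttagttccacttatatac
mew, intron 1, the full TGCTGAC (chrX:13246260-13246460, minus strand): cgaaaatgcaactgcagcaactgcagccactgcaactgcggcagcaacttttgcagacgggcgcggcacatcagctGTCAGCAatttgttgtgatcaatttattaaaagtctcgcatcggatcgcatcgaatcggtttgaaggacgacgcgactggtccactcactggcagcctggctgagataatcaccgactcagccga
if, strongest summit, intron 1 (chrX:16780331-16780531, minus strand): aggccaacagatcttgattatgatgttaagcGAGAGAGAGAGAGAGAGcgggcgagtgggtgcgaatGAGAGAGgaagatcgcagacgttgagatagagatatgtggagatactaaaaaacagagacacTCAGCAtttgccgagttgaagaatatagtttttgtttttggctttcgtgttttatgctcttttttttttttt
rhea, strongest summit, intron 1 (chr3L:8549133-8549333, plus strand): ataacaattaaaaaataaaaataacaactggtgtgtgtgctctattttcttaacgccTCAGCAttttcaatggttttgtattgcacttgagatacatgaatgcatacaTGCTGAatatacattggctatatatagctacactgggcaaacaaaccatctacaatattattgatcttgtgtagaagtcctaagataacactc
stck, strongest summit, upstream (chr3R:8354477-8354677, plus strand): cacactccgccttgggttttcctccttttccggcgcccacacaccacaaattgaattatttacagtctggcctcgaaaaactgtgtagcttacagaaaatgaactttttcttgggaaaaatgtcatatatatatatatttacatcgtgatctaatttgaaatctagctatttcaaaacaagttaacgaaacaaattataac
Ilk, strongest summit by IDR signal, downstream (chr3L:21224457-21224657, plus strand): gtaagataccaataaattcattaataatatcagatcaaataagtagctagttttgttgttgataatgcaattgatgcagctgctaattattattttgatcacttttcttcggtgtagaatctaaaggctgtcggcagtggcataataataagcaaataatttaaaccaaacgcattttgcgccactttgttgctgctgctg
Ilk, 61 bases before the start at 21216901 (chr3L:21216840-21216900, plus strand): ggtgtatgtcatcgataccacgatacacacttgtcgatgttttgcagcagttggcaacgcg

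The strongest summit of mew, at X 13235314 in intron 2, had deposited signals of 893.7, 1530 and 1374 in replicates 1, 2 and 3. The relative signals were 7.86, 6.32 and 8.55 (7.58 ± 1.14, SD, n = 3), and the summit ranked 94 of 10688. All 3 replicates placed it far above the typical peak. The IDR signal that picked the strongest summits came from these same replicates, so their high values were partly set by that choice. For rhea, the summit at 3L 8549233 had signals of 548.4, 1324 and 872.7 and relative signals of 4.83, 5.47 and 5.43 (5.24 ± 0.36), rank 312. For mys, the summit at X 8061811 had signals of 306.9, 762.4 and 624.4 and relative signals of 2.70, 3.15 and 3.89 (3.25 ± 0.60), rank 887. The replicate ranges of mew, rhea and mys did not overlap. For if, the summit at X 16780431 had signals of 163.3, 318.4 and 235.4 and relative signals of 1.44, 1.32 and 1.47 (1.41 ± 0.08), rank 3111. For stck, the summit at 3R 8354577 had signals of 147.3, 374.9 and 214.3 and relative signals of 1.30, 1.55 and 1.33 (1.39 ± 0.14), rank 3026. The ranges of if and stck overlapped, and both lay below all 3 values of mys. For Ilk, the summit at 3L 21224557 had signals of 51.7, 133.0 and 49.4 and relative signals of 0.45, 0.55 and 0.31 (0.44 ± 0.12), rank 10185. All 3 Ilk values lay below those of the other 5 genes.

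**Figure D1:**
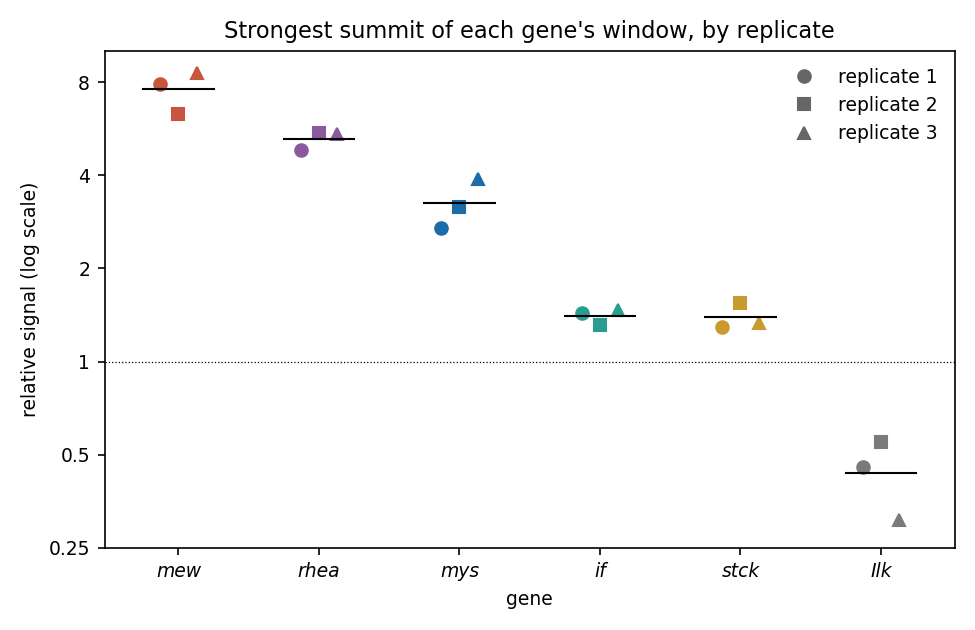
Relative signal, on a log scale, of the strongest IDR summit in each gene's window, with 1 symbol per replicate and a bar at the mean of 3. The dotted line at 1 is the median peak; mew, rhea and mys lie above it without overlap, if and stck overlap each other just above it, and all 3 values of Ilk lie below it.

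Replicate summits were sought only within 200 bp of an IDR summit, in a list selected for reproducibility, so their closeness was limited in advance. Over the summits of the 6 windows the largest offset had a median of 47 bp. It reached 199 bp where neighbours shared a replicate summit. At the strongest summits of the 6 genes the replicate summits lay at most 78 bp from the IDR summit, and that largest offset was at Ilk. At the mew summit they lay 18, 7 and 2 bp away. Each of the 3 replicates had its own strongest summit at the same site for mys, mew, if and rhea. For stck the strongest site was 8362334 in replicate 1, 8354577 in replicate 2 and 8358184 in replicate 3. For Ilk it was the promoter summit in replicates 1 and 3 and the distal summit in replicate 2. All 3 replicate lists held a match within 200 bp for 56 of the 58 summits, a share close to the 10265 of 10688 over the whole IDR list. The summit 8060720 near mys had none in replicate 3 and 8547130 in rhea had none in replicate 1.

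The number of summits also differed between the genes. The mew window held 21 summits in 16 blocks, more than 99.7% of protein-coding genes. The windows of mys and rhea held 10 each, more than 95.8%, in 7 and 5 blocks. That of stck held 9 in 6 blocks, more than 94.0%. The if window held 6 in 6 blocks, more than 81.4%, and the Ilk window 2 in 2, more than 40.0%. These percentages compare summits and not blocks. A summit anywhere in such a window was common, at 73.1% of all protein-coding genes, with a median of 2 and quartiles of 0 and 5. A summit between start and end was less common, at 21.5% of genes, and all 6 genes had one. Long genes have wider windows: mew is 44082 bp, if 31246 bp and rhea 29409 bp long, against a median of 2166 bp. Per kb of window, stck had 0.392 summits, mys 0.350 and mew 0.328, above 97.3%, 95.4% and 93.9% of genes. The density of rhea was 0.202 per kb, that of if 0.117 and that of Ilk 0.0895, against a median of 0.0921.

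**Figure D2:**
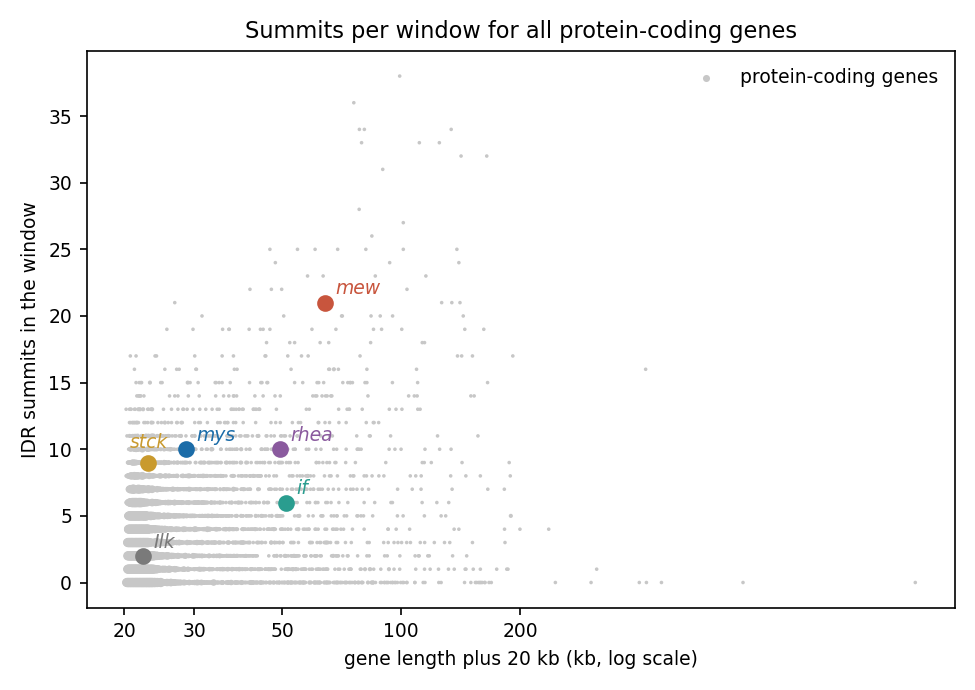
IDR summits from 10 kb before to 10 kb after each protein-coding gene, against gene length plus 20 kb on a log scale; grey points are all protein-coding genes and coloured points the 6 genes. With 21 summits mew lies high among genes of its length, while Ilk, with 2, lies among the bulk of short genes.

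Of the 58 summits, 34 lay between the start and end of 1 of the 6 genes, 16 upstream and 8 downstream. Introns beyond 500 bp of any start held 29 (50% against 39.5% of all IDR summits), and 22 lay within 500 bp of a start of any gene (37.9% against 48.3%). The nearest coding start was the gene's own for 24 summits, and 16 lay inside another gene. Neighbouring summits can be as close as 199 bp and then share 1 replicate summit, which was so for 16 of the 58. Where the value of the nearest replicate summit differs at these, it is the one given below. With nearest summits throughout, divided by the replicate medians given above, the median relative signal of the 58 was 0.808, against 0.929 for all IDR summits. With the strongest summit within 200 bp, the medians were 0.863 and 1.02, and 24 exceeded 1, which is 42.9% of the 56 matched in all 3 replicates against 51.3% of all matched IDR summits. By rank, 5 of the 58 were in the top 10% of the list and 20 in the lowest 25%.

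**Figure D3:**
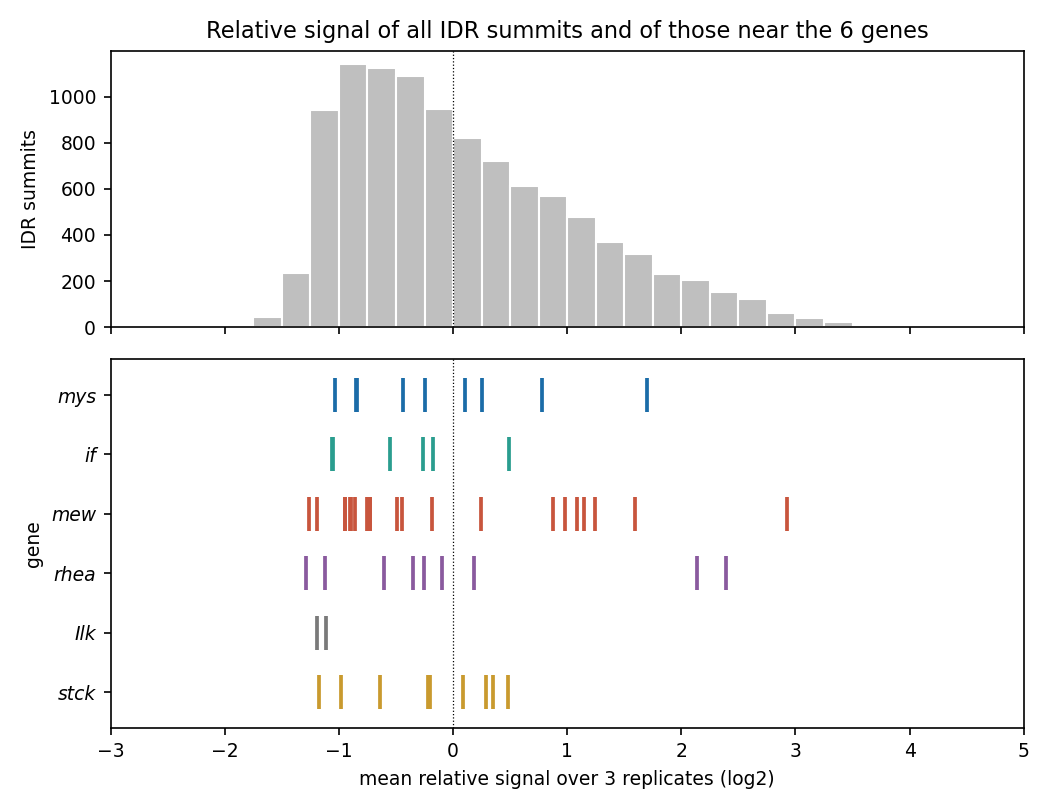
Mean relative signal over 3 replicates on a log2 axis, as a histogram of the IDR summits (top) and as 1 tick per summit near each gene (bottom), with the nearest replicate summit within 200 bp and only summits found in all 3 replicates. Ticks of mew and rhea reach far into the right tail, both Ilk ticks lie at the weak end, and the median of the 58 was 0.808 against 0.929 for all.

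Among the receptor genes, mys (FBgn0004657, X 8061645 to 8070237, plus strand) has 1 annotated start, and 4 of its 10 summits lay within 1000 bp of it. The strongest, at 8061811, lay 166 bp past the start, in sequence that is 5′ UTR or intron by transcript. A companion at 8062014, in the same 856-bp peak, had relative signals at the nearest summits of 1.23, 1.50 and 0.51 (1.08 ± 0.51). Another, 1833 bp past the start in intron 1, gave 0.84 ± 0.06. The remaining 7 summits lay upstream, all inside fs(1)h, which encodes a BET bromodomain protein and starts 209 bp away on the other strand. They lay 724 to 5205 bp upstream of mys and 53 to 797 bp from a start of fs(1)h. The strongest of these, at 8057498, had 1.72, 1.70 and 1.74 (1.72 ± 0.02), below every replicate value of the summit at the mys start.

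The mew gene (FBgn0004456, X 13214409 to 13258490, minus strand) had the most summits of the 6, and 18 of its 21 lay within the gene. Intron 2, of 14045 bp, held 10 of them in 7 blocks, or 0.712 per kb. Intron 1, of 19158 bp, held 7 in 5 blocks besides the promoter summit. The strongest summit lay 23176 bp from the first start, in a peak of 1013 bp, and 1252 bp from the start of CG32639, a gene nested in that intron. The other summit of that peak, at 13235549, had 1.44, 2.74 and 2.48 (2.22 ± 0.68), well below the strongest in each replicate. Further along intron 2, 13230866 had 2.18, 2.44 and 2.50 (2.37 ± 0.17). At 13229960 the values were 1.66, 1.97 and 2.29 (1.98 ± 0.32), and at 13238341 they were 1.59, 1.76 and 2.16 (1.84 ± 0.29). The replicate ranges of these 4 overlapped in part, and all lay above 1. Within each replicate 13230866 was above 13229960 and that above 13238341, while the place of 13235549 changed. In intron 1, 13254702 had 3.04, 2.98 and 3.05 (3.02 ± 0.04) and 13253822 had 2.26, 1.96 and 2.14 (2.12 ± 0.15), without overlap. The starts themselves were weaker. At the second start, used by 4 of 6 annotated transcripts, the summit at 13257160 lay 23 bp past the start with 0.68, 1.07 and 0.90 (0.88 ± 0.20). Near the first start, 13258893 lay 403 bp upstream with 0.55 ± 0.16, closer to the start of comt, which encodes the vesicle fusion ATPase NSF, at 128 bp. Beyond the 3′ end, summits lay at the 5′ UTR of sno (1.18 ± 0.17) and the 3′ UTR of REG (0.52 ± 0.15).

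The if gene (FBgn0001250, X 16752189 to 16783434, minus strand) had 2 of its 6 summits within the gene. Its strongest, at 16780431, lay in intron 1, 643 bp past the third of its 3 starts. The first and second starts, which serve 3 of its 4 transcripts, had no summit within 1000 bp; that summit was the nearest, at 3003 and 2114 bp. The only other summit in the gene, at 16764381 in intron 5, gave 0.43, 0.48 and 0.53 (0.48 ± 0.05), below every replicate value of the first. Past the 3′ end, 3 summits lay at the promoter or within the introns of goe, with 0.89 ± 0.23, 0.83 ± 0.19 and 0.68 ± 0.20. The 1 upstream summit lay in the 5′ UTR of CG4768, 8725 bp from the first start of if, with 0.48 ± 0.13.

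Among the linkers, rhea (FBgn0260442, 3L 8545001 to 8574409, plus strand), which encodes talin, had 9 of its 10 summits in the gene, all within the first 7959 bp of its 29409. A single peak of 1173 bp in intron 1, of 10641 bp, held both strong summits. The first, at 8549233, lay 4232 bp past the first start and 2558 bp past the second. Its neighbour at 8549437 had 3.72, 4.999 and 4.50 (4.41 ± 0.64), rank 443. The replicate ranges of the pair overlapped, though 8549233 was the higher in each replicate. All other rhea summits were much weaker. At the first start, 8545005 lay 4 bp past it with 0.91, 0.83 and 1.06 (0.93 ± 0.12). At the second, 8546701 lay 26 bp past it with 0.60, 1.28 and 1.53 (1.14 ± 0.48), so that replicate 1 was below the typical peak and the others above. The third and the fourth start, each used by 1 of 8 transcripts, had their nearest summit 5004 and 7208 bp away. The 1 upstream summit lay in ergic53, a cargo receptor gene of the secretory pathway, with 0.78 ± 0.35.

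Ilk (FBgn0028427, 3L 21216901 to 21219240, plus strand) stood near the bottom of the list. Its promoter summit, at 21216912, lay 11 bp past the start with deposited signals of 67.7, 58.1 and 88.9 and relative signals of 0.60, 0.24 and 0.55 (0.46 ± 0.19). It ranked 10533 of 10688, and its IDR signal of 219.9 was close to the lowest of the list, 215.6. Trmt112, a methyltransferase cofactor gene, starts 62 bp away on the other strand. The other summit lay 7656 bp from the start, between genes, 2052 bp before a start of Eip78C, which encodes a nuclear receptor induced by ecdysone.

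In stck (FBgn0020249, 3R 8356978 to 8359964, plus strand), which encodes PINCH, 1 of 9 summits lay in the gene. It was at 8358184, 144 bp before the third start, with 0.95, 1.38 and 1.49 (1.27 ± 0.29). The first start had no summit within 1000 bp. Upstream, 5 summits lay between genes in 3 blocks, 1406 to 3778 bp before the first start. Their relative signals were 1.39 ± 0.14 at 8354577, 1.06 ± 0.19 at 8353200, 0.87 ± 0.14 at 8354842, 0.64 ± 0.13 at 8355572 and 0.44 ± 0.10 at 8353400. The strongest of them and the summit in the gene overlapped in replicate range. The other upstream summit lay in the 5′ UTR of Atg13, an autophagy gene, with 0.86 ± 0.22. Downstream, 2 lay in Veneno, a Tudor domain gene, with 1.22 ± 0.14 at 8362334 and 0.51 ± 0.12 at 8362539.

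**Figure D4:**
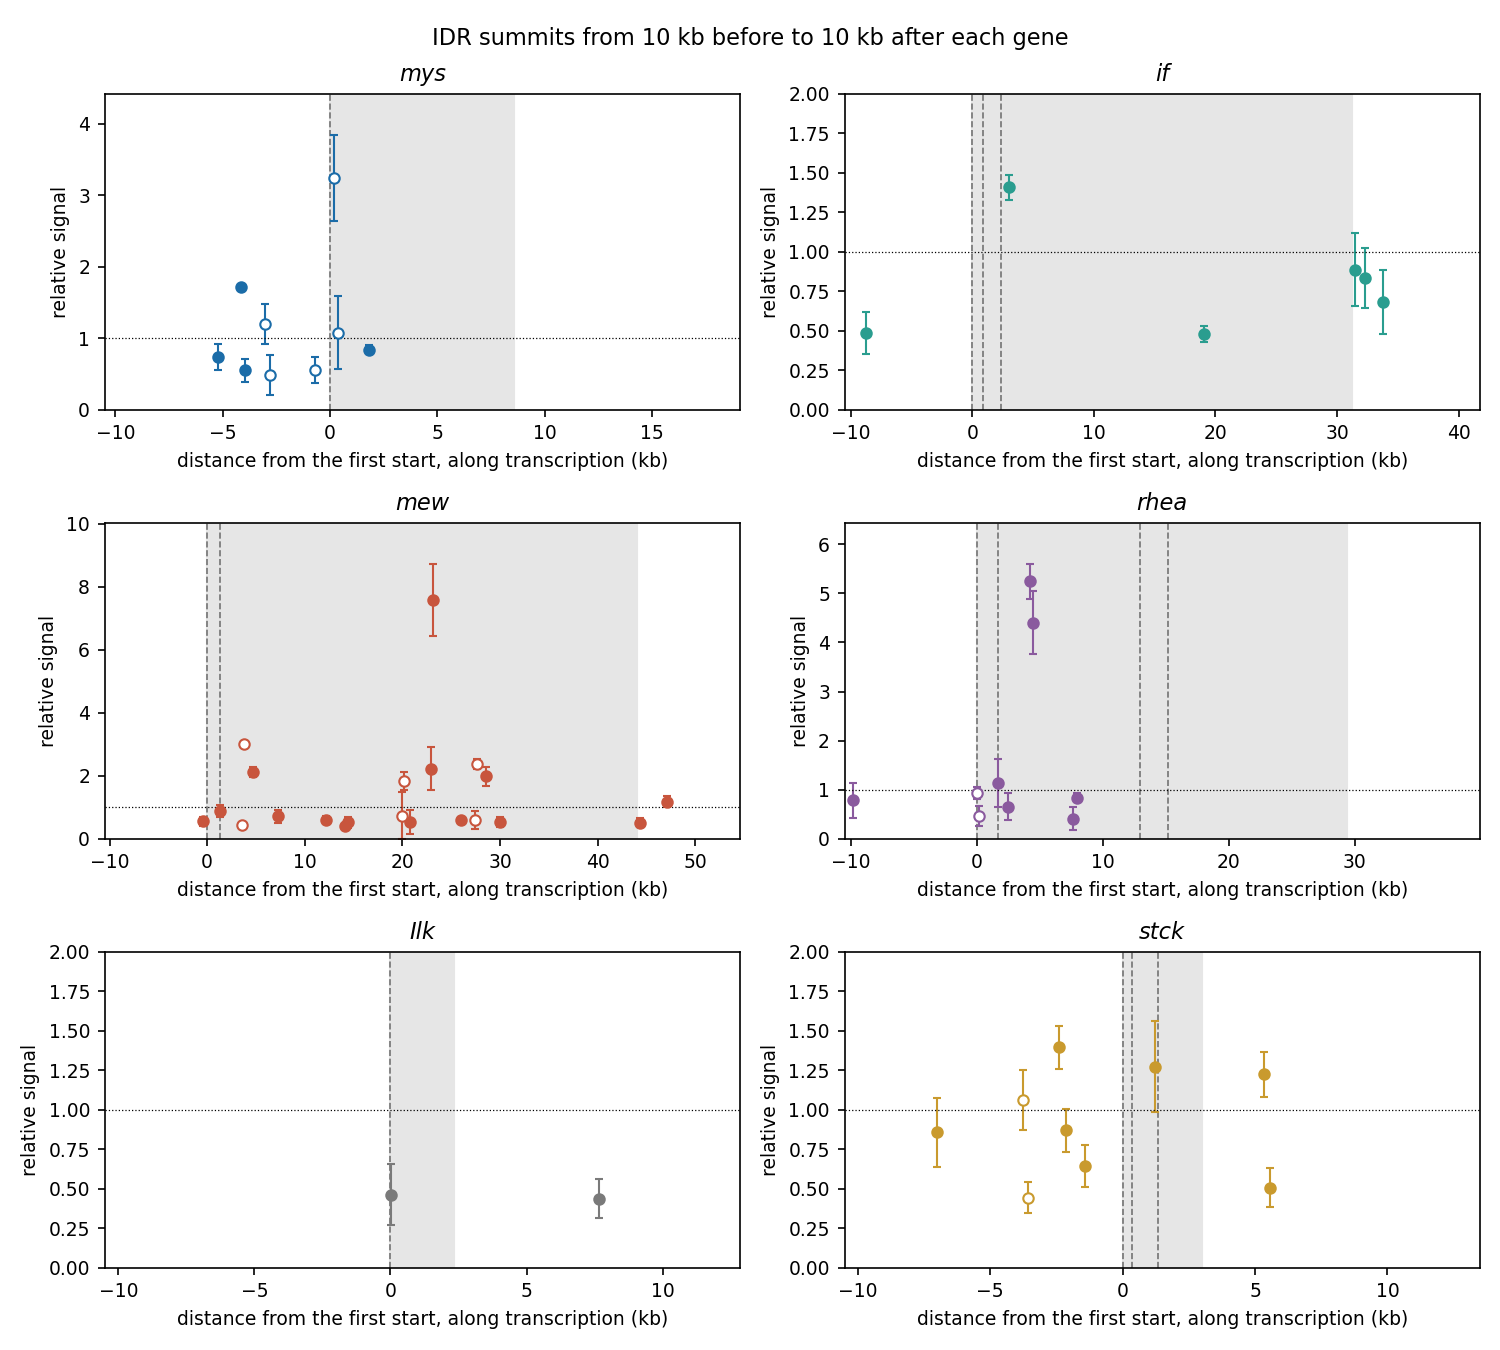
Relative signal (mean and SD of 3 replicates, nearest replicate summit) of each IDR summit found in all 3 replicates, against distance from the gene's first start along transcription in kb. Grey marks the gene, dashed lines its annotated starts and the dotted line a relative signal of 1. With nearest summits the median of all IDR summits was 0.929. Open symbols share a replicate summit with a neighbour. The strong summits of mew (7.58) and rhea (5.24) lie inside the gene, that of mys (3.25) at the start, and the vertical scale differs between panels.

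Promoters gave another order. A promoter summit was a summit within 1000 bp of an annotated start, which 36.4% of protein-coding genes had, and all 6 genes had one. Any start of a gene counted, so genes with more starts had more places for one. The gene rhea has 4 starts, if and stck 3 each, mew 2, and mys and Ilk 1 each. Strongest promoter summits were ranked among genes by IDR signal, and the relative signal is given beside each percentage. That of mys (3.25 ± 0.60) exceeded those of 89.6% of genes that had one. It was followed by if (1.41 ± 0.08; 65.5%), stck (1.27 ± 0.29; 63.0%), rhea (1.14 ± 0.48; 57.9%) and mew (0.88 ± 0.20; 41.6%). Ilk was last, with 0.46 ± 0.19 and 1.03%. The replicate values of mys lay above all others. Those of if, stck and rhea overlapped, and those of mew overlapped with stck and rhea but not with if. Within each replicate stck was above mew. The 3 Ilk values lay below all those of the other 5, although the highest of Ilk and the lowest of rhea both round to 0.60. When summits had to be among the strongest 10688 peaks of both remaining replicates, Ilk had no promoter summit without replicate 1 or without replicate 3, and 5 genes had one. Within 500 bp of a start, 5 genes had one and if had none.

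Besides these 6 genes, lists of other integrin, matrix and cadherin genes had promoter summits to very different extents, where the share of all protein-coding genes was 36.4%. Of the 4 integrin subunit genes outside the 6, only scb, which encodes alphaPS3, had one (1.29, 1.36 and 1.27; 1.31 ± 0.05). ItgaPS4, ItgaPS5 and Itgbn had none. Of 14 other integrin adhesion genes 11 had one, with a median of 2.02. Paxillin (Pax) led with 6.16, 6.63 and 4.32 (5.70 ± 1.22), above all values of mys. The Z-disc protein gene Zasp52 (3.37 ± 0.43) and the tensin gene by (2.71 ± 1.01) followed, while Fit2, which encodes a kindlin, Fak and the zyxin gene Zyx had none. The gene of parvin, the partner of Ilk and PINCH, had 2.38, 2.22 and 2.48 (2.36 ± 0.13), above all 3 replicate values of stck and of Ilk. Of 11 genes for ligands and the basement membrane 8 had one, with a median of 1.25. They were led by the laminin genes LanB2 (3.20 ± 0.31) and wb (3.14 ± 0.50) and by SPARC (2.08 ± 0.07), and Ndg, Tig and Ppn had none. Of 11 cadherin and catenin genes 4 had one, or 36.4%, the same share as among all protein-coding genes, with a median of 0.840. The highest were shg, which encodes E-cadherin (0.96 ± 0.21), Cad87A (0.86 ± 0.12) and Cad99C (0.82 ± 0.22). The corresponding median was 1.20 for the 6 genes and 1.07 for the 5073 protein-coding genes with a promoter summit.

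**Figure D5:**
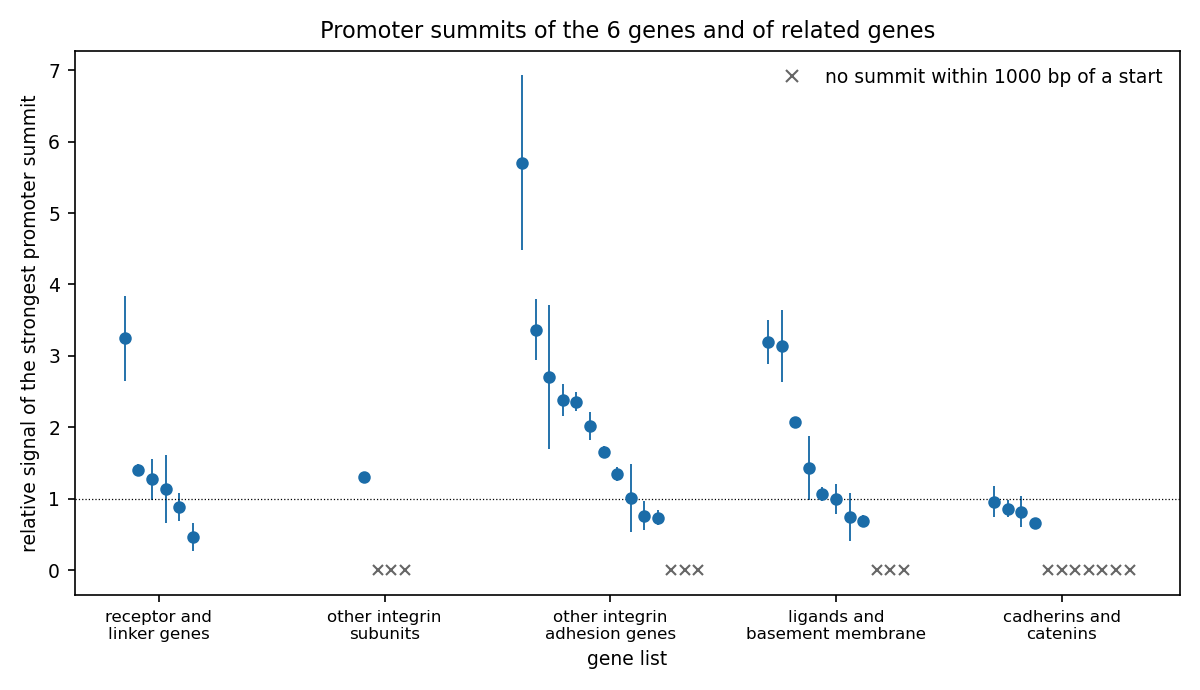
Relative signal (mean and SD of 3 replicates) of the strongest summit within 1000 bp of a start, 1 point per gene in order of strength within each list, with crosses at 0 for genes without one. All 6 receptor and linker genes have a point, 1 of 4 other integrin subunits, 11 of 14 other integrin adhesion genes, 8 of 11 ligand and basement membrane genes and 4 of 11 cadherins and catenins. Of all protein-coding genes, 36.4% have such a summit.

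Words known for transcription factors were counted on either strand within 100 bp of each summit, as a description. TGCTGAC was found at 1 of the 58 summits (1.72%), against 6.84% of all IDR summits and 2.34% of equal windows at the starts of protein-coding genes. That summit, mew 13246360 in intron 1, was weak, with 0.73, 0.48 and 0.57 (0.59 ± 0.12). The palindromic Maf recognition element, with up to 2 mismatches, was found at 0 of 58, against 1.82% of all. The 6-letter word TGCTGA, added after the data were seen and overlapping TGCTGAC, was found at 7 summits (12.1%), against 19.9% of all. It occurred 2 times in the window of the strongest rhea summit and of mew 13229960, and 1 time at if 16780431, all printed above. The windows of the strongest mew, mys and stck summits and of both Ilk summits held none.

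GAGAG was found at 8 of 58 summits (13.8%), against 27.4% of all IDR summits and 22.5% of start windows. The summit of if held 9 overlapping matches, in the 2 capital runs of GA repeats printed above. TGANTCA, the AP-1 type, was found at 2 summits, mys 8063478 and the promoter summit of stck, against 5.64% of all. TTCNNNGAA, the STAT type, was found at 2, both in mew intron 2 (13230866 and the strongest, 13235314), against 5.62%. TATCGATA, the DRE word, was found at 1, at the first start of rhea, against 2.49%, and the E-box CACGTG at 0, against 2.67%. The median GC content of the windows was 41.5%, against 41.3% for all IDR summits.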

How the data were processed

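Peaks of tj-eGFP were measured in 3 biological replicates of whole adult female flies. The authors deposited peak lists whose signal (column 7) is the peak caller's own enrichment value and has no stated unit; each replicate list was made with a control alignment, per the files' accompanying descriptions. The replicate and pooled lists hold 30000 peaks each and include background by design, and the IDR list was made from them. The sources used here do not give the aligner, the caller or the IDR cutoff. Read depth is unknown, so no counting interval is given.

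Replicate files were assigned by recorded sample and replicate number. Only the dm6 lists were used, without conversion. Bases were read from NCBI Release 6. Genes and starts are those of Ensembl release 115 (BDGP 6.54) other than transposable elements. For each IDR summit, the strongest summit within 200 bp in each replicate was divided by that replicate's median over the 10265 IDR peaks matched in all 3. Windows reached 10 kb on both sides of a gene, and a promoter 1000 bp on both sides of a start. The scripts were tested on simulated data. Genes, lists and alternatives were chosen with earlier results of these data known, so no list is independent evidence. Named genes are the 6, the nearest coding start of their summits, and, in each related list, the 3 strongest promoter summits and, where 5 or fewer, those without one; parvin was named besides for its complex with Ilk and stck. With 1 group no test was made. Calculations used Python 3.11.15, NumPy 2.4.6, pandas 2.3.3 and Matplotlib 3.10.9.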

Additional observations from a re-analysis of the deposited data

How the results depend on the processing

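The order of the strongest summits (mew, rhea, mys, then if with stck, then Ilk) was the same under each alternative scaling and matching distance that gave a value, which by construction divide all 6 by other medians. The relative signal of if moved to 1.30 with matching within 50 bp, 1.24 within 500 bp and 1.53 when scaled by the median of each replicate's strongest peaks. It moved to 1.51 with the nearest replicate summit, here divided by the medians of nearest summits, unlike the nearest values above. That of rhea moved to 4.85, 4.63, 5.70 and 5.63 under the same settings, and that of stck to 1.23 within 500 bp. Matching within 50 bp gave values in only 2 replicates for mys and 1 for Ilk, so no mean was made. Without 1 replicate the means ran from 2.92 to 3.52 for mys, 1.38 to 1.45 for if, 7.09 to 8.21 for mew, 5.13 to 5.45 for rhea, 0.381 to 0.502 for Ilk and 1.32 to 1.44 for stck.

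The 58 summits became 34 with gene bodies only and 21 in the strongest 5344 IDR peaks, and 41 to 46 when summits had to be among the strongest 10688 peaks of both remaining replicates. The 6 genes with a promoter summit became 5 or 6 without 1 replicate: Ilk dropped out without replicate 1 or 3, and in the strongest 5344 peaks mew and Ilk dropped out, leaving 4. At 500 bp if dropped out, leaving 5. TGCTGAC was found at 3 summits within 200 bp, at 0 in the strongest 5344 peaks and, as TGCTGA, at 7; it stayed at 1 without any 1 replicate. TGCTGA and the counts of TGCTGAC without 1 replicate were chosen after the data were seen. With 1 group, no paired comparison of conditions was possible. Summits were compared by their replicate ranges and by their order within each replicate, without a test. The weak Ilk summits limit any statement on Ilk, since neither was found in the strongest 10688 peaks of all 3 replicates.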
